A study of Mus musculus with 32 samples.

Results

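Transcripts of 9 TGF-beta pathway genes were followed through mammary tumour progression in mice, out of 24454 gene IDs counted in 32 laser-captured tissue regions. The genes were chosen by name to cover the steps of the pathway, with earlier results of these data known. They were the ligands Tgfb1, Tgfb2 and Tgfb3, the ligand-storing protein Ltbp1, the receptors Tgfbr1 and Tgfbr2, and the feedback genes Smad7, Skil and Pmepa1. All 9 were measured and all 9 had enough counts to be tested. The regions came from females of the genotype MMTV-PyMT; R26-CBW; K8-CreERT2 that had received 5 mg tamoxifen at 5 weeks of age. In these mice the polyoma middle T oncogene under the mammary MMTV promoter drives tumours, and tamoxifen lets Cre in keratin 8 cells switch on a lasting fluorescent colour. Every group shared this genotype and treatment, the normal gland included, so no region came from an animal without the oncogene. Patches of a single colour were cut from 7 µm sections from normal glands (3 libraries), hyperplasias (5), adenomas (8), carcinomas (9) and metastases in the lung (7). Normal 28 and 30 were pooled from several places and normal 18 was taken from the tumour core. Carcinoma regions lay in the core (6) or at the border (3) of the tumour, adenoma regions in the core (3), at the border (3) or outside (2), and metastases at the lung border (4) or in the lung centre (3). The labels do not say which of the 3 stated animals a region came from, so regions shared animals in a way that is not known. Every p-value below treats regions as independent, so it may be too small, and its error could not be measured.

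TGF-beta ligands are secreted in a latent complex that latent TGF-beta binding proteins such as Ltbp1 tie to the extracellular matrix, from which integrins and proteases set them free. The free ligand binds the type II receptor Tgfbr2, which recruits and phosphorylates the type I receptor Tgfbr1, and this passes the signal to SMAD proteins that enter the nucleus. Smad7, Skil and Pmepa1 are induced by the signal and restrain it: Smad7 blocks the type I receptor, Skil encodes the nuclear co-repressor SnoN, and Pmepa1 encodes a membrane protein that binds SMADs. In the mammary epithelium the pathway restrains growth, and in advanced carcinoma cells it is known to favour invasion.

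Total counts per library ranged from 2688611 to 19585351, and 10258 to 17667 genes had a count. Levels are given in CPM, counts scaled to library size after TMM normalization. The fewest genes were detected in hyperplasia 22, metastasis 42 and adenoma 51. The 12 luminal epithelial markers, led by Krt8 and Krt18, summed to 1306 to 4751 CPM, with 11 or 12 of them detected in each library. Other cells were present as well: the 11 lung epithelial markers, led by Sftpc, summed to 447 to 4668 CPM in metastases, against 4.21 to 200 CPM in the other stages, where at least 2 of the 11 had a count in each library. In such bulk regions fewer cells of a type and less RNA per cell cannot be told apart.

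The sequences just upstream of the start sites of Tgfb1 and Tgfb2 differed in make-up. Whether this bears on the levels of the genes was not tested. They are the 250 bases before the RefSeq start site on GRCm38.p6, read on the gene's strand, with capitals marking a TATA box (TATAAA), an E-box (CACGTG) or a GC box (GGGCGG, which reads CCGCCC on the other strand). The Tgfb1 start used is the outer end of the gene in RefSeq and in GENCODE. The Tgfb2 start used is the outer end of the GENCODE gene, and lies 3708 bases inside the longer RefSeq gene, whose outermost start has no window here.
Tgfb2, chr1:186705990-186706239, minus strand: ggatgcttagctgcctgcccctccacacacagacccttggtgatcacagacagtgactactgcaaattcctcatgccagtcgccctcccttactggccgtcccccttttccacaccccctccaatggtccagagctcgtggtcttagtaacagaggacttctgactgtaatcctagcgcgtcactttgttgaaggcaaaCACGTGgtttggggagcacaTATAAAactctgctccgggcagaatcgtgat
Tgfb1, chr7:25686752-25687001, plus strand: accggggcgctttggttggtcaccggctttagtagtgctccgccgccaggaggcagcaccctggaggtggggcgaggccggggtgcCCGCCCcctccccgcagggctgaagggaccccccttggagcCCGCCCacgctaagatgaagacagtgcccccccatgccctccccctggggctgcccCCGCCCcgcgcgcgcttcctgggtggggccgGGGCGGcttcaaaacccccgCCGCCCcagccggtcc
The Tgfb2 window held a TATA box 31 to 26 bases before the start and an E-box 51 to 46 bases before it, and no GC box. The Tgfb1 window held 5 GC boxes and no TATA box or E-box, and its 75.2% G and C stood at percentile 96.1 of all promoter windows, against 53.6% and percentile 53.9 for Tgfb2. Searched on both strands with no overlap between these motifs, TATAAA occurred in 12.4%, CACGTG in 6.02% and GGGCGG in 32.7% of 32851 mouse promoter windows of the same length. A match is a string of letters and not a measured binding site. The RefSeq table held windows for 5 of the 9 genes, Tgfb1, Tgfb2, Tgfbr1, Tgfbr2 and Ltbp1, and not for Tgfb3, Smad7, Skil or Pmepa1. The SMAD element GTCTAGAC occurred in none of these 5 genes' windows, and in 0.167% of all windows. At that share, its absence from so few windows says little. The shorter SMAD motif CAGAC occurred in a window of each of Tgfb2, Tgfbr1, Tgfbr2 and Ltbp1, and not in that of Tgfb1. Tgfbr1 also had a window without it. CAGAC occurred in 42.2% of all windows, and these genes are too few to be set apart from that share.

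Scaled to exon length, the 9 genes spanned a wide range of levels. This length joins the exons of all annotated transcripts of a gene, and is not that of a single transcript. Whether reads spread evenly over it was not tested, so the order of genes and the ligand shares below depend on this scaling. In CPM per kilobase of exon, the median over 32 libraries was 75.8 for Pmepa1, 33.5 for Tgfb3, 6.22 for Tgfbr1, 5.43 for Tgfbr2, 5.32 for Tgfb2, 5.28 for Skil, 3.61 for Ltbp1, 2.16 for Smad7 and 0.325 for Tgfb1. The top and bottom of this order held within libraries: Pmepa1 was above Tgfb3 in 30 of 32, Tgfb3 above Tgfbr1 in 30, and Smad7 above Tgfb1 in 27. The middle did not separate, since Tgfbr1 was above Tgfbr2 in 20 libraries, Tgfbr2 above Tgfb2 in 17, Tgfb2 above Skil in 16 and Skil above Ltbp1 in 21. Ltbp1 was above Smad7 in 23. Cell types of origin cannot be read from these levels.

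Per kilobase of exon, Tgfb3 was the most abundant ligand transcript in 32 of 32 libraries. This count depends on the length scaling, since its exons are the shortest, 3.38 kb against 5.79 for Tgfb2. In CPM alone, Tgfb2 was above Tgfb3 in hyperplasia 44 (53.8 against 45.9), adenoma 51 (55.1 against 44.5) and carcinoma 37 (68.5 against 44.4). Tgfb3 made up 51.9 to 98.5% of ligand mRNA per kilobase, with a median of 84.8%. Its mean share (± SD) was 89.3 ± 6.92% for 3 normal glands, 78.7 ± 16.4% for 5 hyperplasias, 74 ± 12.6% for 8 adenomas, 86.1 ± 15.8% for 9 carcinomas and 83.8 ± 12% for 7 metastases, and these n hold for all stage means below. Tgfb2 supplied most of the rest, with a median of 14.6% and a maximum of 46.8% in carcinoma 37. Tgfb1, the ligand most often studied in tumours, had a median share of 0.842% and reached 13.9% in hyperplasia 33, 12.4% in carcinoma 06 and 11.7% in adenoma 34. These shares rest on the full exon length of each gene, and 12.4% of the Tgfb3 exon bases and 2.14% of those of Tgfb2 overlap antisense genes. Without a stated strand setting, reads of a gene and its antisense partner cannot be told apart.

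**Figure D1:**
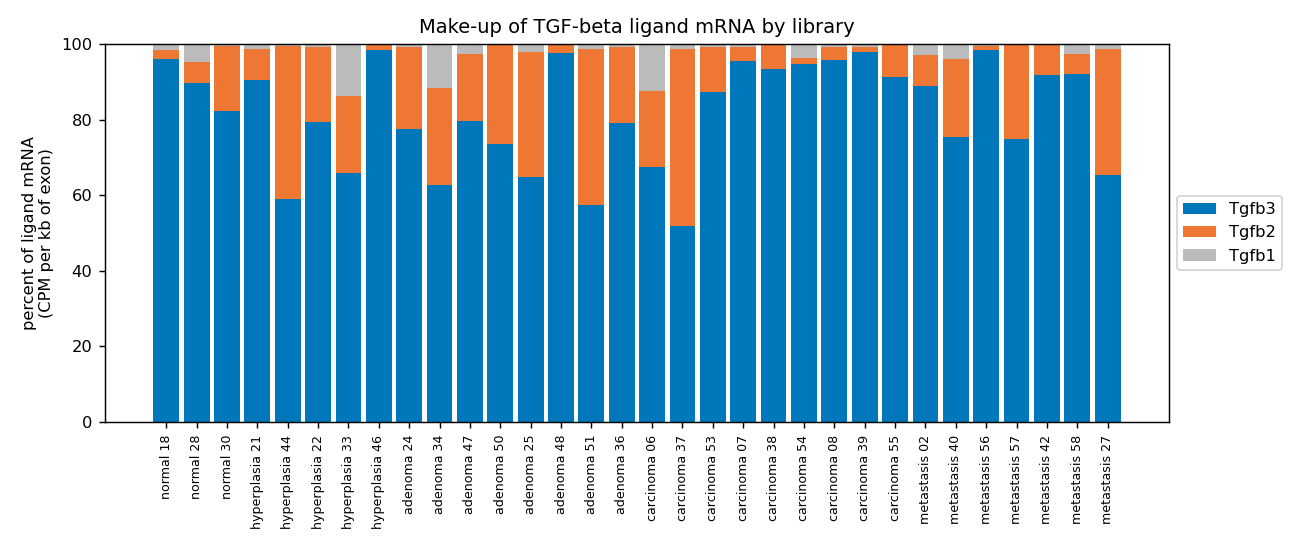
Share of each TGF-beta ligand in the ligand mRNA (percent of the summed CPM per kilobase of exon, vertical axis) in each of the 32 libraries, in stage order. Tgfb3 forms the largest part of every bar, from 51.9% in carcinoma 37 to 98.5% in hyperplasia 46, and Tgfb1 is clearly visible in hyperplasia 33, carcinoma 06 and adenoma 34.

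Of the 9 genes none passed the test across stages. The edgeR quasi-likelihood test with Benjamini-Hochberg adjustment asked whether a gene differed among the 5 stages, and 712 of 19907 genes passed at an adjusted p of 0.05 (3.58%), with 0 of the 9 among them. Pmepa1 came nearest (adjusted p = 0.0684), and it was the only member with an unadjusted p under 0.05, a mark that 20.9% of all genes reached. The call for Pmepa1 turned on the processing, since it passed by the DESeq2 likelihood ratio test (adjusted p = 0.0143, with 1.7% of genes called), and in the edgeR fit without carcinoma 37 (adjusted p = 0.0261, 2.73% called) or without adenoma 36 (adjusted p = 0.0482, 2.96% called). It did not pass by limma voom, where 354 genes (1.78%) were called.

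In the pairwise stage comparisons 0 of the 9 passed by edgeR. The share of all genes called was 0% for hyperplasia against normal gland, for adenoma against hyperplasia and for carcinoma against adenoma, 0.0151% for metastasis against carcinoma and 0.00502% for carcinoma against normal gland. By DESeq2 0 of the 9 passed as well, where 2.43, 3.06, 1.35, 0.934 and 0.889% of genes were called in these 5 comparisons, and by limma voom 0 of the 9 passed, where 0.527, 0.01, 0.0352, 0.0954 and 1.59% of genes were called. At an unadjusted p under 0.05 stood 0 of 9 for hyperplasia against normal gland (12.4% of all genes), 0 for adenoma against hyperplasia (14.8%), 1 for carcinoma against adenoma (12.6%), 1 for metastasis against carcinoma (10.9%) and 0 for carcinoma against normal gland (8.17%). The 9 genes are too few to set 1 of 9 apart from these shares. The groups overlapped for all 9 genes in all 5 comparisons, where 5.12, 0.0703, 0.0201, 0.0904 and 2.14% of all genes did not overlap, in the order from hyperplasia minus normal, adenoma minus hyperplasia, carcinoma minus adenoma and metastasis minus carcinoma to carcinoma minus normal. The median log2 fold change of the 9 was -0.02, 0.03, -0.39, 0.52 and -0.55 in the same order, beside 0, 0.06, 0.02, -0.01 and 0.1 over all genes tested.

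**Figure D2:**
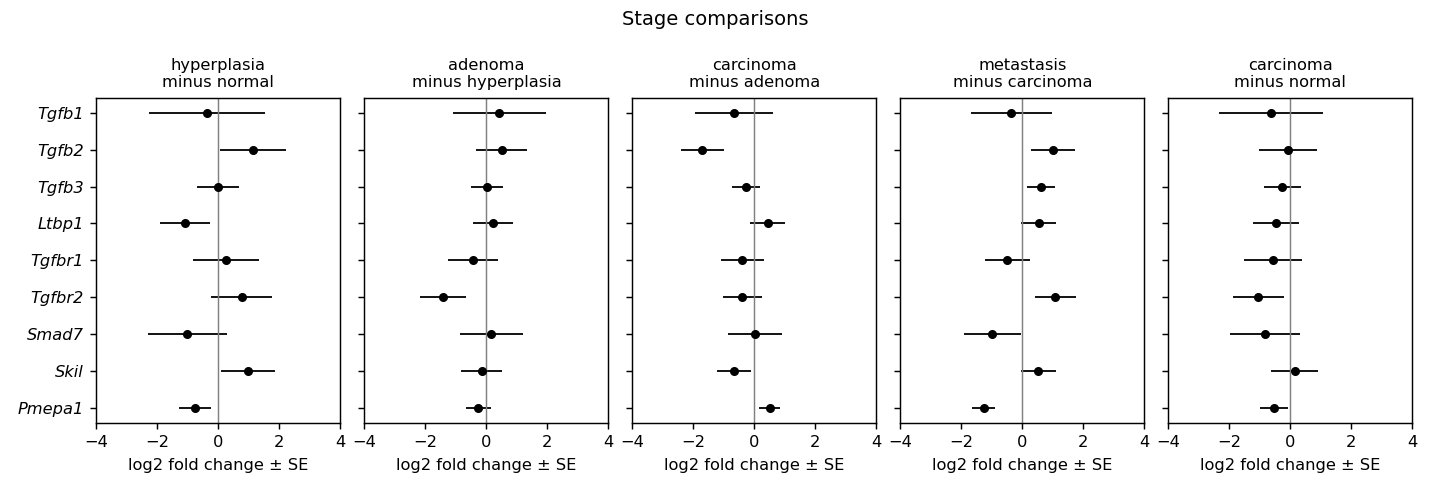
Log2 fold change of each gene in the 5 stage comparisons (horizontal axis, point) with its standard error (bar) from the edgeR fit, each comparison as the first-named stage minus the second. The points farthest from 0 for their error are Pmepa1 at -1.27 in metastasis minus carcinoma and Tgfb2 at -1.71 in carcinoma minus adenoma, and none passed the adjusted threshold.

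Among the ligands, Tgfb3 (chr12:86056743-86079041, minus strand) had stage means between 113 and 172 CPM. It averaged 136 ± 28.5 CPM for normal glands, 134 ± 128 for hyperplasias, 137 ± 108 for adenomas, 113 ± 49.3 for carcinomas and 172 ± 168 for metastases. Its levels were 116, 123 and 169 CPM in normal gland and 45.9, 51.3, 63.5, 161 and 347 CPM in hyperplasia. As lowest, median and highest, it reached 44.5, 103 and 390 CPM in adenoma, 44.4, 96.7 and 186 CPM in carcinoma, and 65.6, 122 and 546 CPM in metastasis. A few libraries set the high ends: without metastasis 42 the metastasis mean was 110 ± 35.1 CPM (n = 6), without adenoma 36 the adenoma mean was 101 ± 37 CPM (n = 7), and without hyperplasia 22 the hyperplasia mean was 80.4 ± 54.2 CPM (n = 4). The metastasis minus carcinoma difference of Tgfb3 was 0.61 ± 0.47 on the log2 scale (SE, adjusted p = 0.738).

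Tgfb2 (chr1:186622787-186709697, minus strand) had its highest median in adenoma. It had 4.92, 18 and 44.1 CPM in normal gland and 4.2, 9.78, 27, 53.8 and 150 CPM in hyperplasia. Its lowest, median and highest were 4.31, 61.2 and 170 CPM in adenoma, 2.71, 12.3 and 68.5 CPM in carcinoma, and 2.37, 33.9 and 91.3 CPM in metastasis. Adenoma regions were the highest as a group, and 7 of the 8 had 41.2 CPM or more, while 1 of the 9 carcinoma regions did, so the groups overlapped through adenoma 48 and carcinoma 37. Carcinoma averaged 21.1 ± 21.1 CPM, against 69.1 ± 48.2 CPM in adenoma, a log2 fold change of -1.71 ± 0.71 (adjusted p = 0.248). With detected genes as a covariate this was -1.06.

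Tgfb1 (chr7:25687002-25705077, plus strand) was near the limit of detection. It had fewer than 10 counts in 13 of the 32 libraries, and its medians were 2.76 CPM for normal glands, 1.33 for hyperplasias, 2.7 for adenomas, 1.58 for carcinomas and 1.86 for metastases. In 3 stages a single library set the mean: hyperplasia 33 had 16.1 CPM where the next had 4.44, adenoma 34 had 27 where the next had 7.11, and carcinoma 06 had 20.2 where the next had 5.24. At these counts, of amplified reads that are not independent molecules, no difference in Tgfb1 between stages was detected. Its log2 fold changes were -0.68 to 0.42, with standard errors of 1.28 to 1.91, in the 5 stage comparisons. Its counts did not simply follow depth, with 1 count in hyperplasia 46 (15226553 total counts) and 50 in normal 28 (3002492 total counts).

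Ltbp1 (chr17:75005480-75392512, plus strand), which stores the latent ligand in the matrix, had 21.3, 82.9 and 83.5 CPM in normal gland and 6.49, 27.7, 34.1, 34.3 and 42.9 CPM in hyperplasia. From lowest through median to highest, Ltbp1 stood at 8.56, 24 and 68 CPM in adenoma, 10.7, 47.1 and 89 CPM in carcinoma, and 12, 60.5 and 146 CPM in metastasis. Both pooled normal libraries lay above every hyperplasia region and normal 18 lay within their range. The hyperplasia minus normal difference was -1.1 ± 0.82 (log2, SE, adjusted p = 0.611).

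The receptors varied widely within stages. Tgfbr2 (chr9:116087695-116175363, minus strand), the type II receptor that binds ligand, had 5.92, 69.4 and 131 CPM in normal gland and 8.17, 37.2, 72, 222 and 243 CPM in hyperplasia. Lowest, median and highest Tgfbr2 were 0.508, 46.6 and 90.8 CPM in adenoma, 12.2, 34.6 and 54.9 CPM in carcinoma, and 6.21, 82.8 and 150 CPM in metastasis. The carcinoma regions stood closest together, with a coefficient of variation of 41.7%, against 69.6 to 93.2% in the other stages. Adenoma averaged 43.4 ± 33.4 CPM, against 117 ± 109 CPM in hyperplasia (log2 fold change -1.42 ± 0.74, adjusted p = 0.367). Metastasis averaged 70.3 ± 48.9 CPM, against 33.3 ± 13.9 CPM in carcinoma (1.08 ± 0.67, adjusted p = 0.629).

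Tgfbr1 (chr4:47353222-47414926, plus strand), the type I receptor kinase, had 10.8, 85.7 and 95.8 CPM in normal gland and 5.8, 51.6, 59.4, 108 and 158 CPM in hyperplasia. For Tgfbr1 the lowest, median and highest were 0, 39.5 and 207 CPM in adenoma, 6.35, 40.4 and 125 CPM in carcinoma, and 3.11, 24.9 and 81.7 CPM in metastasis. Adenoma 51 had 0 Tgfbr1 counts, which allows up to 0.856 CPM when a count of 0 is read as up to 3 counts, for counting error only. The Tgfbr1 mean was highest in hyperplasia and lowest in metastasis, and no pair of neighbouring stages differed beyond its error, with log2 fold changes between -0.5 and 0.25 and standard errors between 0.71 and 1.07. The receptor ratio varied between libraries. Per kilobase, Tgfbr2 was 1.05% of both receptors in adenoma 47 and 100% in adenoma 51, with a median of 40.8%. These extremes rest on very low counts, 2 of Tgfbr2 in adenoma 47 and 0 of Tgfbr1 in adenoma 51. Metastasis had the highest median Tgfbr2 share, 71.8%, and Tgfbr2 was the more abundant receptor in 4 of 7 metastases, against 3 of 9 carcinoma regions.

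**Figure D3:**
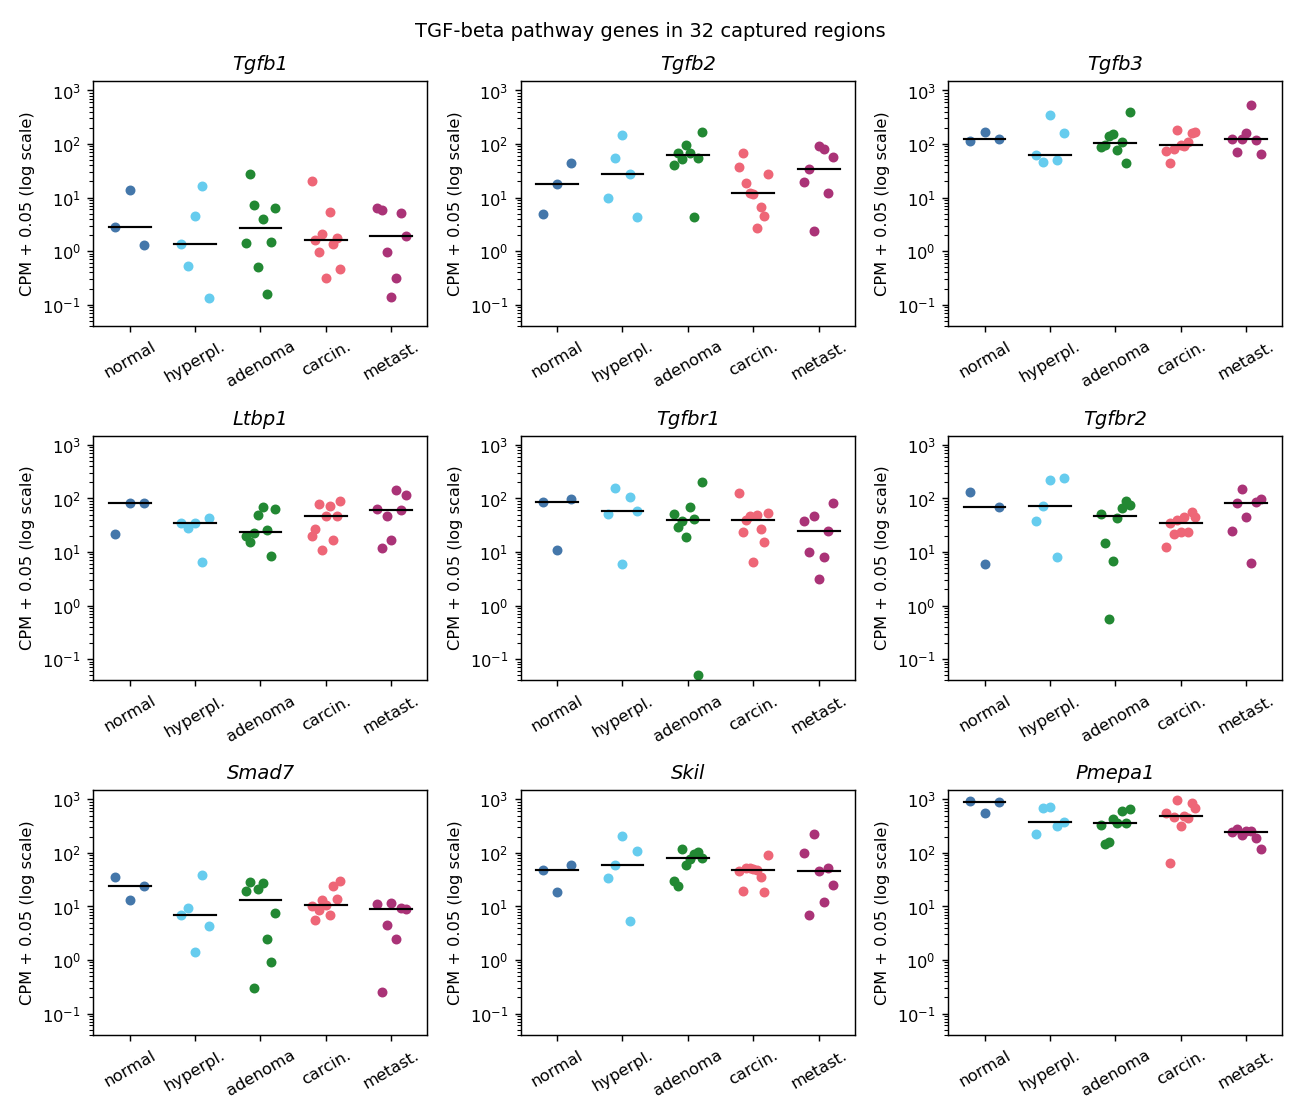
Level of each of the 9 genes in each library (CPM plus 0.05, log scale), by stage from normal gland to lung metastasis, with a point per library and a bar at the median of the stage. Pmepa1 is the highest and Tgfb1 the lowest panel, and metastases lie together at 121 to 286 CPM for Pmepa1, while most genes spread over a wide range within a stage.

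Of the feedback genes, Pmepa1 (chr2:173224458-173276731, minus strand) had the smallest p-values. It had 565, 888 and 921 CPM in normal gland and 226, 313, 377, 696 and 711 CPM in hyperplasia. For Pmepa1 the lowest, median and highest were 144, 365 and 667 CPM in adenoma, 64.8, 492 and 977 CPM in carcinoma, and 121, 241 and 286 CPM in metastasis. Every metastasis stood below 8 of the 9 carcinoma regions, and carcinoma 37, at 64.8 CPM, stood below every metastasis, so the groups overlapped through that library. Metastasis averaged 224 ± 54.6 CPM, against 542 ± 276 CPM in carcinoma, a log2 fold change of -1.27 ± 0.37 (adjusted p = 0.206). Over the alternative settings and left-out libraries this ranged from -1.39 to -1.07, with adjusted p-values of 0.0818 to 0.714. All 7 metastases also lay below all 3 normal libraries. Of the 9 genes, 2 did not overlap between metastasis and normal gland, Pmepa1 and Smad7, where 2.85% of all genes did not, and no test was fitted for that difference.

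Smad7 (chr18:75367365-75395935, plus strand) was low and its stages overlapped, other than metastasis and normal gland. It had 13.2, 24 and 35.5 CPM in normal gland and 1.37, 4.28, 6.85, 9.28 and 38.1 CPM in hyperplasia. Later stages gave, as lowest, median and highest, 0.254, 13.4 and 28.3 CPM in adenoma, 5.46, 10.6 and 29.6 CPM in carcinoma, and 0.200, 8.83 and 11.8 CPM in metastasis. All 7 metastases were below the lowest normal library (2.85% of all genes did not overlap between these stages), and 4 libraries had fewer than 10 counts. Metastasis averaged 6.89 ± 4.54 CPM, against 13.6 ± 8.16 CPM in carcinoma (log2 fold change -0.98 ± 0.93, adjusted p = 0.823).

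Skil (chr3:31095058-31122923, plus strand) had 18.3, 48.6 and 58.3 CPM in normal gland and 5.24, 33.3, 59.1, 107 and 203 CPM in hyperplasia. At the later stages the lowest, median and highest were 23.9, 78.8 and 120 CPM in adenoma, 18.6, 48.2 and 90.7 CPM in carcinoma, and 7.01, 46.3 and 221 CPM in metastasis. By median, Skil was highest in adenoma, while Smad7 and Pmepa1 were highest in normal gland. These are orders of medians only, since none of the feedback genes passed the edgeR test across stages given above. Carcinoma averaged 46 ± 21.3 CPM of Skil, against 73.3 ± 34 CPM in adenoma (log2 fold change -0.67 ± 0.56, adjusted p = 0.731).

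The 9 genes did not move together from library to library. Over the 36 pairs, Spearman's rho across the 32 libraries, which share scaling and animals, had a median of 0.06 and a range of -0.28 to 0.39, and 21 pairs were above 0. The highest was Tgfbr2 with Skil, and the lowest Smad7 with Skil. Tgfb3 and Pmepa1 gave 0.36. Among 7251 other genes of at least 20 CPM on average, those most like Pmepa1 across the 32 libraries were Dcn (rho 0.77), which encodes the matrix proteoglycan decorin, and Timp2 (0.71), which encodes a metalloproteinase inhibitor. Those most like Tgfb3 were Ubxn8 (0.62) and the collagen gene Col1a2 (0.6). For the other genes the closest were Scamp1 for Tgfb1 (0.66), 2310022B05Rik for Tgfb2 (0.71), Mdp1 for Tgfbr1 (0.63), Irx1 for Tgfbr2 (0.68), Pabpc4l for Smad7 (0.64), Gramd1a for Skil (0.64) and Nop9 for Ltbp1 (0.65). These are the extremes of many genes, given as a description.

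Among the 9 genes, Pmepa1 and Tgfb3 had the highest rank correlations with the fibroblast and matrix markers of the regions. Pmepa1 had the highest with macrophage markers. The 16 fibroblast and matrix markers, led by Sparc and Col1a2, summed to 1343 to 4727 CPM for normal glands, 250 to 1846 for hyperplasias, 41.1 to 1732 for adenomas, 64 to 3800 for carcinomas and 187 to 393 for metastases. Of the 16 markers, 16 had a count in each normal library, 13 to 16 in carcinoma and 7 to 15 in metastasis. Across 32 libraries the sum had a rho of 0.64 with Pmepa1 and 0.58 with Tgfb3, and within stages 0.52 and 0.57 in adenoma (n = 8), 0.62 and 0.77 in carcinoma (n = 9), and 0.14 and 0.68 in metastasis (n = 7). The sum of 13 macrophage markers had a rho of 0.56 with Pmepa1 over all libraries, and within stages 0.98 in adenoma, 0.7 in carcinoma and 0 in metastasis. In adenoma and carcinoma these were higher than the rho of Pmepa1 with the fibroblast sum. With Tgfb3 the macrophage sum had a rho of 0.41 over all libraries, and 0.48 in adenoma, 0.65 in carcinoma and 0.29 in metastasis. Over all libraries Ltbp1 had a rho of 0.4 with the fibroblast sum and 0.43 with the macrophage sum. In the same order these were 0.29 and 0.36 for Tgfbr2, 0.24 and 0.35 for Skil, and 0.26 and 0.14 for Tgfbr1. They were 0.29 and -0.07 for Smad7, -0.07 and -0.14 for Tgfb2, and -0.07 and -0.13 for Tgfb1. The sum of 11 lung epithelial markers had a rho of -0.45 with Pmepa1 over all libraries. Within stages it was -0.57 in adenoma, -0.35 in carcinoma and 0.11 in metastasis. Dcn and Col1a2 are themselves in the fibroblast list. The part of these other cells in the lower Pmepa1 of metastases was not tested.

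**Figure D4:**
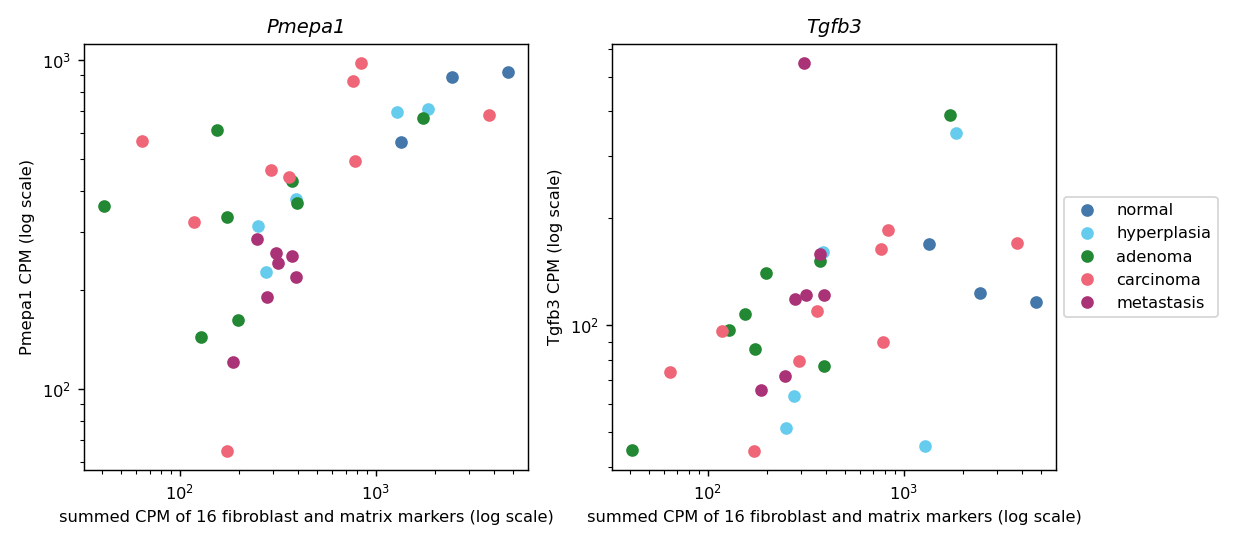
Level of Pmepa1 (left) and Tgfb3 (right) in CPM against the summed CPM of 16 fibroblast and matrix markers, both on log scales, with a point per library coloured by stage. In the Pmepa1 panel the 3 normal libraries stand toward the upper right, at sums of 1343 to 4727 CPM, and the 7 metastases hold a narrow range of marker sums, 187 to 393 CPM, and of Pmepa1, 121 to 286 CPM.

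The place of a region within a tumour gave no call. In carcinoma core against border, adenoma core against border and lung border against lung centre, 0 of the 9 genes passed by edgeR, and 0% of 22676 genes did. By DESeq2 0 of the 9 passed, where 1.38, 5 and 3.26% of genes were called, and by limma voom 0 of the 9, where 0.022, 0.154 and 0.0529% were. These p-values, too, treat regions that share animals as independent. At an unadjusted p under 0.05 stood 0, 1 and 0 of the 9, against 5.63, 9.45 and 8.71% of all genes. In each comparison the groups of 1 of the 9 genes did not overlap, where 1.23, 5.84 and 2.92% of all genes did so.

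In carcinoma this gene was Smad7. It had 5.46, 9.36 and 13.2 CPM as the lowest, median and highest of 6 core regions, against 13.6, 24.5 and 29.6 CPM in the 3 border regions. The nearest core and border values, 13.2 and 13.6 CPM, almost touched. Core averaged 9.16 ± 2.75 CPM, against 22.6 ± 8.22 CPM at the border (log2 fold change -1.3 ± 1.38, adjusted p = 1.0). In adenoma the order was the opposite, with 0.856, 19.2 and 27 CPM in the core, against 0.254, 2.43 and 7.52 CPM at the border. The core minus border difference of Smad7 between carcinoma and adenoma was -3.5 on the log2 scale and did not pass (adjusted p = 0.718).

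In adenoma the gene was Tgfb3, with 44.5, 77 and 86.1 CPM in the core, against 108, 140 and 390 CPM at the border. The log2 fold change was -1.62 ± 0.77 (adjusted p = 0.514), and -0.92 without adenoma 36, the highest border region (adjusted p = 0.751). Carcinoma core had 44.4, 84.7 and 186 CPM of Tgfb3 as lowest, median and highest, against 110, 164 and 170 CPM at the border, and these overlapped through carcinoma 07. The sum of fibroblast markers was 174, 394 and 41.1 CPM in the adenoma core regions, against 198, 154 and 1732 CPM at the border, the last in adenoma 36. Its part in the Tgfb3 difference was not tested.

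In metastasis the gene was Ltbp1, with 12, 16.4, 47.8 and 60.5 CPM at the lung border, against 62.4, 117 and 146 CPM in the lung centre. The log2 fold change was -1.67 ± 0.95 (adjusted p = 0.564). The lung epithelial marker sum overlapped between these groups, at 447 to 3950 CPM at the lung border, against 1020 to 4668 CPM in the lung centre. Pmepa1 differed little by position there, with 237 ± 41.8 CPM at the lung border (n = 4), against 207 ± 74.3 CPM in the lung centre (n = 3).

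**Figure D5:**
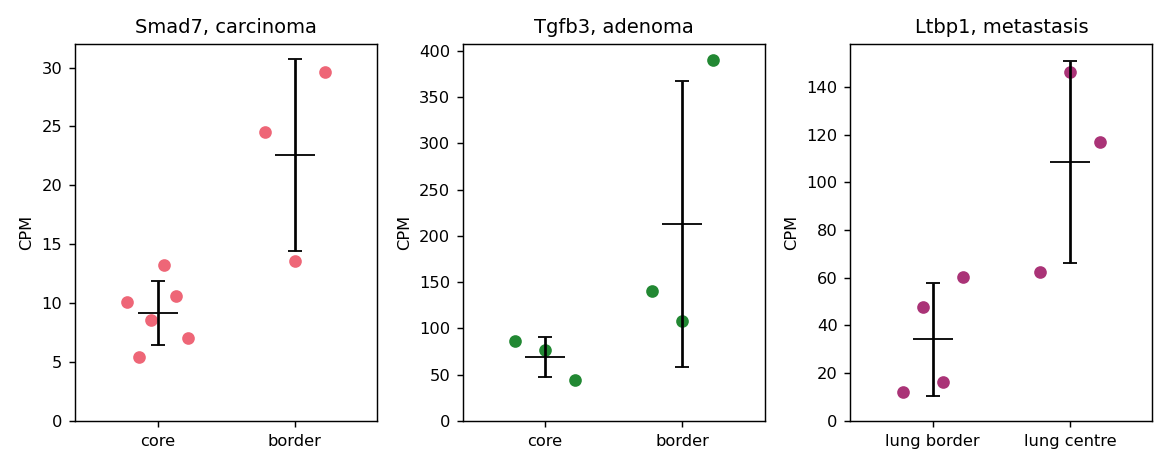
CPM of Smad7 in carcinoma (core left, border right), Tgfb3 in adenoma (core left, border right) and Ltbp1 in metastasis (lung border left, lung centre right), with a point per library, the mean as a dash and the SD as an error bar. These are the genes whose groups did not overlap, and in the Smad7 and Ltbp1 panels the nearest values of both groups almost touch.

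The rest of the pathway was followed through 55 further genes, also chosen with earlier results of these data known. All were measured and tested: 16 of latency and activation, 6 receptors and co-receptors, 4 of the SMAD core, 10 inhibitors and regulators, and 19 target genes. Across stages 3 of the 55 passed by edgeR (3.58% of all genes did): the fibrillar collagens Col3a1 (adjusted p = 0.0159) and Col1a1 (adjusted p = 0.03), both target genes, and Mmp14 (adjusted p = 0.0408), a membrane protease that can free the latent ligand. Col3a1 and Col1a1 are also in the fibroblast marker list. The 55 genes are too few to set 3 of them apart from the share over all genes. Whether these 3 also pass under the alternative settings was not tested. Col3a1 averaged 394 ± 298 CPM for normal glands, 57.7 ± 38.4 for hyperplasias, 41.9 ± 48.5 for adenomas, 68.4 ± 113 for carcinomas and 16.1 ± 6.73 for metastases. Mmp14 was lowest in adenoma, with 149 ± 93.4 CPM for normal glands, 43.3 ± 72 for hyperplasias, 12 ± 10.5 for adenomas, 72.5 ± 37.5 for carcinomas and 65 ± 23 for metastases.

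In each single stage or position comparison 0 of the 55 passed by edgeR, with 7, 7, 3, 4 and 2 at an unadjusted p under 0.05 in the stage comparisons as ordered above, where 12.4, 14.8, 12.6, 10.9 and 8.17% of all genes were. In the position comparisons 5, 8 and 1 were, against 5.63, 9.45 and 8.71% of all genes. These counts are near or below the share over all genes in the stage comparisons. In metastasis minus carcinoma the smallest p-values belonged to Col1a1 (log2 fold change -2.72 ± 0.85, adjusted p = 0.223), Dcn, Col3a1 (-2.08 ± 0.73, adjusted p = 0.24) and Ltbp2 (-1.62 ± 0.62, adjusted p = 0.281), a relative of Ltbp1. Dcn averaged 0.822 ± 1.01 CPM in metastasis, against 15.5 ± 17.3 CPM in carcinoma. In carcinoma minus adenoma they belonged to Mmp14 (2.59 ± 0.66, adjusted p = 0.141), Col1a1 (1.7 ± 0.77, adjusted p = 0.321), the matrix protein gene Ccn2 (2.2 ± 1.06, adjusted p = 0.375) and Ltbp4 (2.22 ± 1.11, adjusted p = 0.406).

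In adenoma minus hyperplasia the genes of smallest p were Itgb1 (log2 fold change -1.21 ± 0.43, adjusted p = 0.198), Ltbp4 (-3.4 ± 1.25, adjusted p = 0.205), Itgb3 (-2.24 ± 0.83, adjusted p = 0.205) and Mmp14 (-1.85 ± 0.71, adjusted p = 0.214). Itgb1 and Itgb3 encode integrin chains. In hyperplasia minus normal they were Zeb1, Col3a1 (-2.77 ± 0.98, adjusted p = 0.282), Col1a1 (-2.48 ± 1.1, adjusted p = 0.346) and Tgfbi (-3.66 ± 1.72, adjusted p = 0.374). Zeb1, a transcription factor of epithelial to mesenchymal transition, had 0 to 1.1 CPM in hyperplasia, against 1.04 to 64.2 CPM in normal gland. In carcinoma minus normal they were Col3a1 (-2.53 ± 0.82, adjusted p = 0.259), the fibronectin gene Fn1 (-2.37 ± 1.01, adjusted p = 0.539), Col1a1 (-1.84 ± 0.94, adjusted p = 0.614) and the regulator Strap (1.66 ± 0.87, adjusted p = 0.62).

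By position, carcinoma core minus border had Usp15, a deubiquitinase that acts on the receptor complex, at 4.15 ± 1.24 on the log2 scale (adjusted p = 0.781), Col3a1 at -2.56 ± 0.81, Cdkn1a at -2.7 ± 1 and Col1a1 at -2.11 ± 0.89, each with an adjusted p of 0.781. In adenoma core minus border the ubiquitin ligase gene Nedd4l was at -2.98 ± 1.09 and Itgb3 at -2.46 ± 1.17, with Dcn and Zeb1 also among the smallest p-values and all 4 at an adjusted p of 0.514. In lung border minus lung centre Ltbp4 was at -4.15 ± 1.65 (adjusted p = 0.558), the co-repressor gene Ski at 1.76 ± 0.89 (adjusted p = 0.558), the fibrillin gene Fbn1 at 2.68 ± 1.45 (adjusted p = 0.562) and Col1a1 at 1.91 ± 1.06 (adjusted p = 0.563). The median log2 fold change of the 55 genes was -0.41, -0.05, 0.31, 0.11 and -0.43 in the 5 stage comparisons, beside 0, 0.06, 0.02, -0.01 and 0.1 over all genes.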

How the data were processed

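RNA of 32 laser-captured regions was reverse transcribed from poly(A), amplified and sequenced without molecular identifiers, per the labels' protocols. The authors deposited raw counts per gene ID, whole numbers for 24454 IDs, aligned with STAR to mm10 per the submitters' processing notes. No source used here gives the counting program, annotation or strand setting. Symbols for 24374 IDs and gene positions were taken from RefSeq GRCm38.p6, and exon lengths from GENCODE vM21. Total counts were 2688611 to 19585351 per library. A single ID with no symbol held 5.2 to 78.9% of a library's counts.

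Samples were grouped by the labelled stage and position. Genes were filtered with filterByExpr (19907 genes by stage, 22676 by position) and TMM-scaled. The edgeR 4.0.16 quasi-likelihood model took all 32 libraries, with stage, or stage and position combined, as its factor. The test was two-sided, and p-values were adjusted by Benjamini-Hochberg over all genes tested at 0.05. The common dispersion was 2.64 for stages. The 9 genes, the 55 pathway genes and the marker lists were chosen with earlier results of these data known. Of the pathway genes, those that passed and, per comparison, the 4 of smallest p with a mean of 10 CPM or more were named. The closest genes to each member were the 2 of highest Spearman's rho of log2(CPM + 1), and a rho is given with no p. Alternatives were DESeq2 1.42.0, limma 3.58.1 voom with sample weights, other scalings, no filter, a covariate for detected genes, subsets of libraries and each library left out. The edgeR pipeline was tested on simulated data, which did not measure its power for small fold changes. R was 4.3.3.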

Additional observations from a re-analysis of the deposited data

Results flagged for a closer look

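In 10 of 36 sets of one gene in one stage, the highest library stood apart from the rest by Dixon's 95% criterion (gap to the nearest over the whole range). Chance flags about 1 in 20 groups where values are normally distributed. These CPM values are skewed, with each of the 10 on the high side, so the rate chance gives here is not known and the number of such libraries is a description only. For Tgfb1 these were hyperplasia 33 at 16.1 CPM, adenoma 34 at 27 CPM and carcinoma 06 at 20.2 CPM. For Tgfb3 they were adenoma 36 at 390 CPM and metastasis 42 at 546 CPM. For Tgfbr1 they were adenoma 36 at 207 CPM and carcinoma 06 at 125 CPM. For Smad7 it was hyperplasia 33 at 38.1 CPM, and for Skil carcinoma 55 at 90.7 CPM and metastasis 56 at 221 CPM.

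Adenoma 36, hyperplasia 33 and carcinoma 06 each stood apart for 2 genes. Without the library that stood apart, Tgfb1 averaged 1.59 ± 1.97 CPM in hyperplasia (n = 4), 2.97 ± 2.86 CPM in adenoma (n = 7) and 1.68 ± 1.56 CPM in carcinoma (n = 8). Smad7 averaged 5.44 ± 3.4 CPM in hyperplasia (n = 4), Tgfbr1 35.4 ± 22.3 CPM in adenoma (n = 7) and 32.9 ± 17.4 CPM in carcinoma (n = 8), and Skil 40.4 ± 14.1 CPM in carcinoma (n = 8) and 40.2 ± 33.7 CPM in metastasis (n = 6). What sets these libraries apart was not tested.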

How the results depend on the processing

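The 72 log2 fold changes of the 9 genes were recomputed 1440 times in all. None passed the adjusted threshold in any of these, with a smallest adjusted p of 0.0818, and 38 of the 72 kept their sign throughout. The sign turned in 98 of the 1440 recomputations, for 34 values, and the cause was not tested. With detected genes as a covariate these were, in hyperplasia minus normal, Tgfb1 at 0.15 and Skil at -0.04, in adenoma minus hyperplasia, Skil at 0.03, in carcinoma minus adenoma, Tgfb3 at 0.32 and Smad7 at -0.2, in carcinoma minus normal, Skil at -0.21, in carcinoma core minus border, Skil at 0.05, in metastasis lung border minus lung centre, Tgfb1 at -0.45. Without hyperplasia 22, metastasis 42 and adenoma 51 these were, in hyperplasia minus normal, Tgfb2 at -0.05, in adenoma minus hyperplasia, Smad7 at 0.0 and Skil at 0.51, in carcinoma minus adenoma, Smad7 at -0.16, in metastasis minus carcinoma, Tgfb3 at -0.03, in adenoma core minus border, Ltbp1 at 0.26, in metastasis lung border minus lung centre, Tgfb1 at -0.4 and Tgfb3 at 0.34. With upper quartile scaling these were, in hyperplasia minus normal, Tgfb3 at 0.23, in adenoma minus hyperplasia, Tgfb3 at -0.27, in adenoma core minus border, Skil at 0.08. With DESeq2 size factors these were, in hyperplasia minus normal, Tgfbr1 at -0.02, in adenoma minus hyperplasia, Smad7 at -0.12, in carcinoma minus normal, Skil at -0.27, in carcinoma core minus border, Skil at 0.03. By the DESeq2 test these were, in hyperplasia minus normal, Tgfbr1 at -0.02, in adenoma minus hyperplasia, Smad7 at -0.11, in carcinoma minus normal, Skil at -0.27, in carcinoma core minus border, Skil at 0.03. By limma voom these were, in hyperplasia minus normal, Skil at -0.01, in adenoma minus hyperplasia, Skil at 0.27, in carcinoma minus adenoma, Tgfb3 at 0.02 and Tgfbr2 at 0.29, in metastasis minus carcinoma, Tgfb1 at 0.43, in carcinoma minus normal, Skil at -0.01, in adenoma core minus border, Tgfb1 at 0.67 and Tgfb2 at 1.1, in metastasis lung border minus lung centre, Tgfb1 at -0.44, Tgfb3 at 0.19 and Skil at -0.04. Without the filter these were, in carcinoma minus adenoma, Smad7 at 0.0. With 1 library left out in turn, signs turned for these ranges. In adenoma core minus border they ran from -1.37 to 0.35 for Ltbp1, from -1.04 to 0.79 for Tgfb2 and from -0.2 to 0.8 for Tgfbr2. In adenoma minus hyperplasia they ran from -0.01 to 0.39 for Ltbp1, from -0.39 to 0.57 for Skil, from -0.21 to 1.3 for Smad7, from -0.59 to 1.95 for Tgfb1, from -0.33 to 0.78 for Tgfb3 and from -1.11 to 0.02 for Tgfbr1. In carcinoma core minus border they ran from -0.67 to 0.42 for Ltbp1 and from -0.45 to 0.71 for Skil. In carcinoma minus adenoma they ran from -0.2 to 0.28 for Smad7, from -1.82 to 0.33 for Tgfb1, from -0.44 to 0.11 for Tgfb3 and from -0.79 to 0.24 for Tgfbr1. In carcinoma minus normal they ran from -0.21 to 0.46 for Skil, from -1.78 to 0.9 for Tgfb1 and from -0.73 to 0.9 for Tgfb2. In hyperplasia minus normal they ran from -2.09 to 1.16 for Tgfb1, from -0.06 to 2.1 for Tgfb2, from -0.93 to 0.19 for Tgfb3 and from -0.25 to 0.66 for Tgfbr1. In metastasis lung border minus lung centre they ran from -0.07 to 0.43 for Pmepa1, from -0.35 to 2.13 for Skil, from -0.69 to 0.19 for Smad7, from -0.44 to 1.46 for Tgfb1 and from -1.5 to 0.35 for Tgfb3. In metastasis minus carcinoma they ran from -0.2 to 0.74 for Skil, from -0.66 to 0.79 for Tgfb1 and from -0.03 to 0.78 for Tgfb3.

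Across stages 0 of the 9 genes passed, and 1, Pmepa1, passed with DESeq2 size factors (adjusted p = 0.0292), without the gene ID of highest share (0.0447), by the DESeq2 test (0.0143), without the filter on low counts (0.0214) and with the covariate (0.0466). With each library left out the number passing ranged from 0 to 1, with Pmepa1 passing without adenoma 36 or carcinoma 37. The 712 genes called across stages became 999 with DESeq2 size factors, 954 with upper quartile scaling, 918 without the gene ID of highest share, 338 by DESeq2, 354 by limma voom, 3717 without the filter, 833 with the covariate and 126 without hyperplasia 22, metastasis 42 and adenoma 51. In the stage comparisons from hyperplasia minus normal to carcinoma minus normal, edgeR called 0, 0, 0, 3 and 1, DESeq2 483, 609, 269, 186 and 177, and limma voom 105, 2, 7, 19 and 316 genes. In the position comparisons edgeR called 0 throughout, DESeq2 314, 1133 and 740, and limma voom 5, 35 and 12. With the covariate 168 genes were called for carcinoma minus adenoma. DESeq2 size factors moved the median of all genes to -0.35 in hyperplasia minus normal and -0.31 in carcinoma minus normal. Low counts limit Tgfb1 most, with fewer than 10 counts in 13 libraries. No paired analysis was possible because the labels do not say which animal a region came from.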
